A study of Mus musculus with 2 samples.

Results

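A set of 10 imprinted genes that control growth was followed in LT-HSC, the long-term haematopoietic stem cells from which all blood lineages can be renewed: Igf2, Igf2r, Grb10, H19, Meg3 (older name Gtl2), Dlk1, Cdkn1c, Ndn, Plagl1 and Peg3. Members were all sequences of the array that the files name after these genes. This gave 25 of the 44170 sequences, and they belong to 8 of the 10 genes. No sequence carried the symbol Igf2r or Ndn, so both genes were not analysed here by the rule. The study profiled LT-HSC sorted by flow cytometry from the femoral marrow of C57/BL6 mice, with 1 NimbleGen expression array (Cy3) for WASH knockout mice and 1 for the wild type control. How the WASH allele was removed, the age of the animals and how many mice gave each RNA are not given in the sources used here. With 1 array in each group there was no replicate spread, so no difference below was tested and none carries a p-value or SE.

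Imprinted genes are expressed mainly from the maternal or the paternal copy, and their clusters are governed by control regions whose DNA methylation differs between the parental chromosomes. Many act on growth in opposing ways: Igf2 is a growth factor, and Igf2r, Grb10, H19 and Cdkn1c restrain growth. In the haematopoietic system several of them are known for high expression in quiescent stem cells, and loss of Cdkn1c or of maternal control at H19 and Igf2 is known to push stem cells out of quiescence.

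Values are RMA intensities (robust multi-array average, a summary over up to 3 probes per sequence) on a linear scale, and a difference is the log2 value of the knockout array minus that of the control array. Background was read from 5000 random-sequence probes, whose level was 71.3 (control array) and 75.7 (knockout array). A sequence was placed in the detected range when its mean log2 value over both arrays lay above the median over all sequences, which corresponds to an intensity of 136. Levels of different sequences are not compared with each other, because probes differ in brightness.

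The imprinted genes with the clearest signal were Meg3, Dlk1, Plagl1 and Cdkn1c, and none of their sequences in the detected range differed 2-fold between the genotypes. In that range lay 10 member sequences, of which 8 were higher and 2 lower on the knockout array, with differences from -0.89 to 0.87 and a median of 0.43. Over all 22085 sequences of that range the median was 0.01, 50.9% were higher and 11.7% differed at least 2-fold (5.06% higher, 6.67% lower). The remaining members, Igf2, Grb10, H19 and Peg3, stood near or below the random-sequence level. The exception was Igf2 BC053489, at 2.01 times that level on the knockout array. Of the 25 sequences, 14 were above that level on both arrays (2 of them at least 2-fold higher, beside 10.2% of such sequences at that size, 4.62% higher and 5.56% lower), 9 on neither, 1 only on the control array and 1 only on the knockout array. A weak signal from these genes cannot be told from background on 3 probes a sequence.

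**Figure D1:**
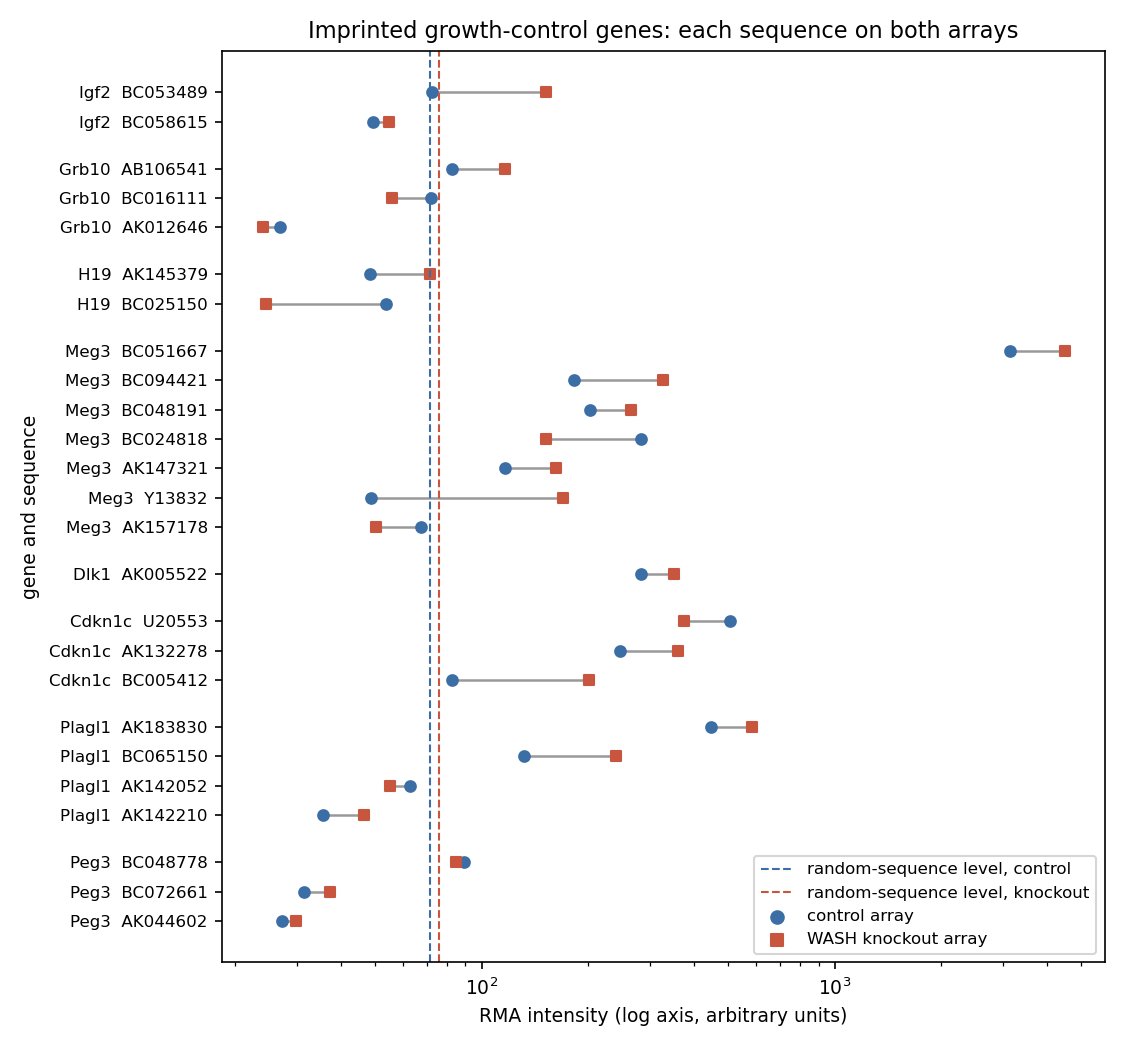
RMA intensity (log axis) of the 25 sequences of 8 imprinted genes on the control array (circles) and the WASH knockout array (squares), each pair joined by a line, with the random-sequence level of each array as a dashed line. The sequences of Igf2, Grb10, H19 and Peg3 lie near or left of the dashed lines on the control array, and 1 Meg3 sequence stands far to the right, at 3137 and 4480.

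Sequences that frame these results come from RefSeq (build GRCm38.p6). H19 carries a microRNA within its transcript, miR-675, which is known to restrain Igf1r, the receptor through which Igf2 signals. Its mature forms are shown because H19 and Igf1r are both read below, with the seed (bases 2 to 8) in capitals. They lie on the minus strand at chr7:142577112-142577133 and chr7:142577078-142577099.
mmu-miR-675-5p: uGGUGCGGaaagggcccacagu
mmu-miR-675-3p: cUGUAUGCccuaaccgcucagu

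The promoters of Meg3 and Plagl1 are shown as those of the members with several detected sequences higher on the knockout array. Each is the 250 bases before the gene's start on the plus strand, at chr12:109540746-109540995 for the first of 2 Meg3 starts and chr10:13090582-13090831 for Plagl1. Capitals mark TGCCGC on either strand, the core that the imprint reader ZFP57 is known to bind when methylated, and TATAAA on either strand.
Meg3: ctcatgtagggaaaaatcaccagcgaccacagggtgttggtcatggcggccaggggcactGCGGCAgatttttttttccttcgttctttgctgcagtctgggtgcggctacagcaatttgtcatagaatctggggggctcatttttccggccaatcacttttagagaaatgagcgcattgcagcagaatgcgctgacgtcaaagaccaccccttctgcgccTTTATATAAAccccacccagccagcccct
Plagl1: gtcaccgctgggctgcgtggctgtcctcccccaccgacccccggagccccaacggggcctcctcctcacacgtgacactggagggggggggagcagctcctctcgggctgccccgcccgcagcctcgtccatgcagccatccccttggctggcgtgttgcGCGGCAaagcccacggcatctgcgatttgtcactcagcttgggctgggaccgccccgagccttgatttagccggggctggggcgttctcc

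RefSeq gave 13 such windows for 8 of the 10 genes. TGCCGC stood in 2 of the 13, those printed, against 8.68% of 32851 windows of all genes. TATAAA stood in 1 of the 13, the printed Meg3 window, where 2 matches on opposite strands overlap; 12.4% of all windows hold it. GGGCGG, the GC box, stood in 5 of the 13 on either strand, against 32.7% of all windows. A core motif of CTCF was searched on both strands too; 0 of the 13 windows and 0.103% of all windows hold it. The Plagl1 window holds 19 CpG and the printed Meg3 window 10, against a median of 6 over all windows. A second Meg3 window, at chr12:109545148-109545397, holds 0 CpG. These matches are letters in a window and say nothing of binding in these cells.

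Meg3 is a long non-coding RNA of the maternal chromosome, whose locus heads a large cluster of microRNAs. Its 7 sequences lie within chr12:110779213-110809935 (MM9), most of them overlapping, and are not replicates. The brightest, BC051667 (chr12:110787366-110809935), read 3137 (control) and 4480 (knockout), which is 44.0 and 59.2 times background. It was thus far above background on both arrays and higher in the knockout by 0.51. BC094421 read 183 and 327 (0.84). BC048191 was at 203 and 265 (0.38). AK147321 was at 117 and 162 (0.47). These 4 sequences were all higher in the knockout, by less than 2-fold.

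BC024818, which the files describe as a Meg3 clone with an apparent retained intron, went the other way, with 283 (control) and 152 (knockout), a difference of -0.89. Y13832 was below the random-sequence level in the control (48.8) and above it in the knockout (169.6), which makes it at least 2.38-fold higher. AK157178, at the 5' end of the locus (chr12:110779213-110783529), was below that level on both arrays, at 67.4 and 50.1. Of the 7 sequences, 5 were higher and 2 lower in the knockout, so the Meg3 sequences did not share a direction.

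Dlk1, the paternally expressed neighbour of Meg3, encodes a membrane protein of the Notch ligand type that restrains differentiation. Its single sequence, AK005522 (chr12:110691700-110698828), read 283 (control) and 350.0 (knockout), 3.98 and 4.63 times background. The difference was 0.30, and with 1 sequence it could not be set against another probe set.

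Other transcripts of the Dlk1 and Meg3 domain were read with the same rule. Rian, a non-coding RNA that hosts small nucleolar RNAs downstream of Meg3, had the largest difference of any cluster neighbour, with 126 (control) and 527 (knockout), a difference of 2.06 (AF498302, chr12:110872412-110884550). The other 3 Rian sequences did not follow it. AF498301 was at 121 and 118 (-0.04), and AF498300 stood at the background, 72.5 and 86.4. AK017440 was below the random-sequence level on both arrays, at 68.7 and 32.3. Mirg, a non-coding RNA of the domain downstream of Rian, had 1 sequence higher in the knockout (666 and 906, 0.44) and 2 lower (-0.71 and -0.35). Dio3, which encodes a deiodinase that inactivates thyroid hormone, was at 94.6 and 145 (0.62), outside the detected range. Together with the Dlk1 and Meg3 sequences given above, the domain had 16 sequences, 13 of them above the random-sequence level on both arrays. Of these 13, 9 were higher and 4 lower, with a median of 0.38. Over all sequences above that level on both arrays, 51.6% were higher and the median was 0.02. The 13 hold 5 sequences of Meg3 and 1 of Dlk1, so they count member values again. Those of Rian and Mirg took both signs.

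Cdkn1c encodes p57, an inhibitor of cyclin-dependent kinases that holds stem cells in quiescence. Its 3 sequences overlap on chromosome 7 (MM9) and were above the random-sequence level on both arrays. U20553 (chr7:150644244-150646901) was lower in the knockout, from 507 to 374 (-0.44). AK132278 (chr7:150646185-150646901) was higher, from 247 to 360.5 (0.55). BC005412 (chr7:150644613-150646892) went from 82.6, only 1.16 times the random-sequence level, to 202 (1.29). The sequences of Cdkn1c therefore disagreed in direction, and the array gave no single direction for this gene. The sign of its value turned from -0.44 with the brightest sequence to 0.47 with the mean of the 3.

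Plagl1 (Zac1) encodes a zinc finger transcription factor that halts the cell cycle and is known to regulate other imprinted genes. Its brightest sequence, AK183830 (chr10:12811580-12844974), read 446 (control) and 584 (knockout), a difference of 0.39. BC065150 (chr10:12810714-12851501) was at 132 and 241 (0.87). Both were thus higher in the knockout by less than 2-fold. The other 2 sequences were below the random-sequence level on both arrays, AK142052 at 62.5 and 55.1 and AK142210 at 35.5 and 46.4. Plagl1 kept a positive difference in all 7 alternatives computed for it, between 0.35 and 0.40, but most of these use the same brightest sequence. The others, the mean and the dimmest of its sequences, draw on values below the random-sequence level.

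Igf2, the fetal growth factor at the head of this axis, was at background on the control array. BC053489 (chr7:149836672-149843372) read 72.5 (control) and 152 (knockout), 1.02 and 2.01 times background. Its difference of 1.07 thus rests on a control value that cannot be told from background. BC058615, which covers nearly the same interval, was below the random-sequence level on both arrays (49.1 and 54.7). Among 6363 sequences that were above that level on both arrays but below the detected range, as BC053489 was, 5.33% differed at least 2-fold, 3.25% higher and 2.07% lower. The bounds of this set limit how large a difference in it can be, so these shares do not show how rare the Igf2 value is. Over all sequences above that level on both arrays 10.2% differed at least 2-fold, 4.62% higher and 5.56% lower.

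H19, the maternally expressed non-coding RNA of the same domain, gave no signal above the random sequences. AK145379 (chr7:149761435-149764019) was at 48.4 and 71.6. BC025150 (chr7:149761435-149762920) was at 53.5 and 24.5. Both were below the random-sequence level of their array, and no fold is given for them. Whether H19 differs between the genotypes was not detectable with these probes.

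Grb10, an adaptor that damps insulin and IGF receptor signalling, and Peg3, a paternally expressed zinc finger protein, were also near background. The brightest Grb10 sequence, AB106541 (chr11:11870425-11926327), read 82.7 (control) and 117 (knockout), 1.16 and 1.54 times background, a difference of 0.50. BC016111 was at 72.0 and 55.6, above that level only in the control, and AK012646 was at 26.8 and 24.0. For Peg3, BC048778 (chr7:6659381-6668798) was at 89.1 and 84.4 (-0.08), and BC072661 and AK044602 ranged from 27.3 to 37.1 on both arrays, below the random sequences. Neither gene had a sequence in the detected range.

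Ndn encodes necdin, a p53-interacting protein known to restrain stem cell proliferation. A sequence without a gene symbol, BC015268 (chr7:69493240-69494814, MM9), is described in the files as necdin mRNA and so falls outside the rule. It read 40.3 (control) and 32.6 (knockout), below the random-sequence level on both arrays. For Igf2r, the receptor that clears Igf2, the antisense transcript Airn that silences it on the paternal copy was measured. The brightest of 4 Airn sequences was at 313 and 335 (0.10), and the others differed by -0.02, -0.16 and 1.13, the last from a value of 35.0 below background in the control.

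**Figure D2:**
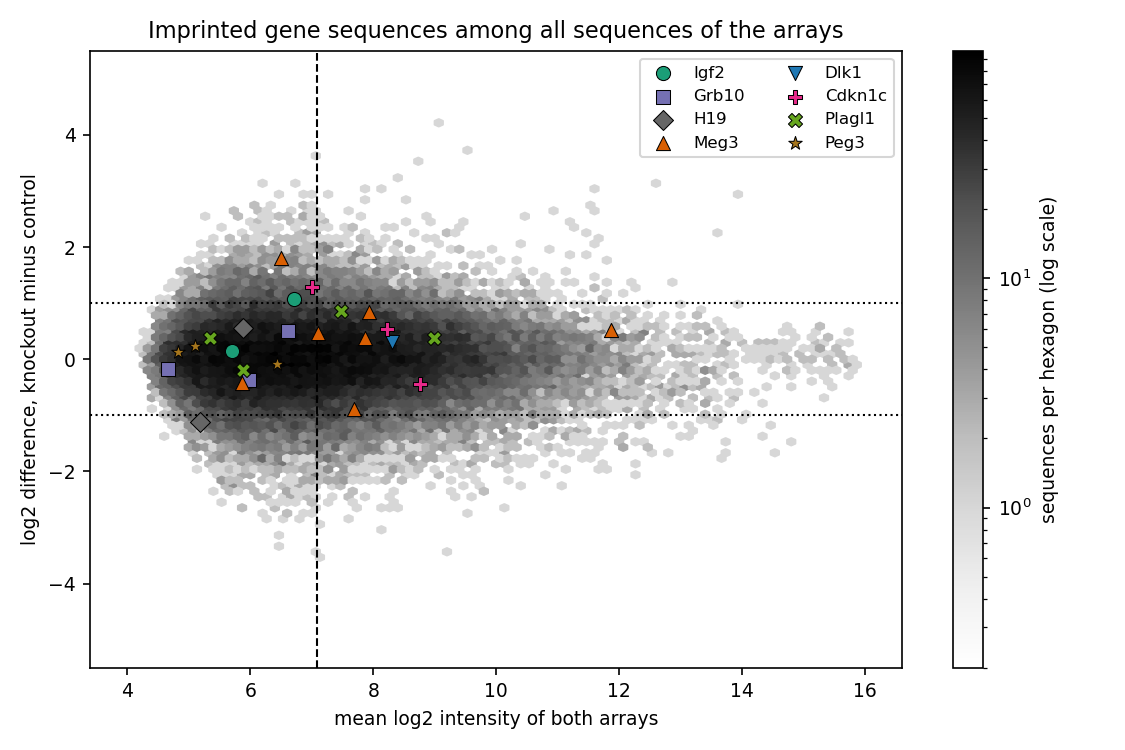
Log2 difference (knockout minus control) against mean log2 intensity for all 44170 sequences (grey hexagons, shaded by number) and for the 25 sequences of the imprinted genes (coloured symbols); dotted lines mark 2-fold and the dashed line the start of the detected range. The 4 member sequences beyond a dotted line all lie left of the dashed line, and the 10 to its right lie between -0.89 and 0.87.

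Across members, without regard to brightness, 17 of 25 sequences were higher in the knockout and 8 lower, beside 50.7% higher among all sequences of the arrays. The values of 4 of the 25 lay at least 2-fold apart, 3 higher (Meg3 Y13832, Cdkn1c BC005412, Igf2 BC053489) and 1 lower (H19 BC025150, below background on both arrays and so no measured fold), beside 12.7% of all sequences (5.98% higher, 6.77% lower). The control value of each of the 4 was close to the random-sequence level or below it, from 48.8 to 82.6. Of the 7 members with several sequences, 6 had sequences of both signs, Igf2 being the exception. By brightest sequence, 6 members were higher and 2 lower (Cdkn1c and Peg3), with a median of 0.44, beside 0.02 over all 24171 genes and 51.6% higher. Igf2 was the only one of the 8 at 2-fold by that sequence, beside 12.4% of all genes (5.94% higher, 6.42% lower). Of these 8 sequences, 4 were in the detected range: Meg3 (0.51), Plagl1 (0.39), Dlk1 (0.30) and Cdkn1c (-0.44). The median of 0.44 thus draws in part on values near or below background. The H19 sequence counted as higher was below the random-sequence level on both arrays, so it is no measured fold. With the dimmest sequence of each gene the median was 0.14. In the detected range the 6 further sequences of members had a median of 0.51, 5 higher and 1 lower. Separate sequences of a gene differed by a pooled SD of 0.59 (log2, 4233 genes with 10358 sequences in the detected range), and the differences of the 4 members in that range, -0.44 for Cdkn1c to 0.51 for Meg3, were smaller than that SD.

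Imprinted genes beside the members in their clusters were measured for 25 of 29 listed, and 15 were in the detected range, of which 13 were higher and 2 lower in the knockout, beside 51.7% higher among the 14805 genes of that range. Their median over all 25 was 0.25. At least 2-fold differences were seen in 2 of the 15, Rian and Cobl (173 and 362, 1.06), an actin nucleator gene next to Grb10, beside 11.2% of genes in that range (5.09% higher, 6.14% lower). The others in that range lay between -0.42 for Kcnq1ot1 (1392 and 1037), the non-coding RNA that silences the Cdkn1c cluster, and 0.83 for Zfp264 (107 and 191), a zinc finger gene beside Peg3. Mkrn3 and Magel2, neighbours of Ndn, were at 1176 and 1511 (0.36) and at 173 and 235 (0.44). The 7 other sequences of these genes in the detected range did not share the lean, with 4 higher and 3 lower and a median of 0.07.

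Imprinted genes of other clusters had a lower median when dim genes were left out. Of 23 measured, 13 were higher and 10 lower, with a median of 0.06, while the 15 in the detected range had 6 higher and 9 lower, with a median of -0.24, beside 51.7% higher among all genes of that range. At least 2-fold differences were seen in 3 of the 15, beside 11.2% of all genes in that range (5.09% higher, 6.14% lower): Gnas, the stimulatory G protein subunit (948 and 319.5, -1.57), Inpp5f, a phosphoinositide phosphatase (227 and 111, -1.03), and Klf14, a Kruppel-like factor (161 and 379, 1.24). The second Gnas sequence above background was at 347 and 313 (-0.15), and the other 4 Inpp5f sequences were below background in the control, at 21.6 to 46.3. Klf14 had a single sequence.

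Genes of the IGF and insulin pathway gave values in both directions. Of 38 measured, 28 were in the detected range, 14 higher and 14 lower, and the median over all 38 was 0.11. At least 2-fold differences were seen in 4 of the 28, 2 higher and 2 lower, beside the 11.2% of all genes in that range. Igf1r, the signalling receptor of Igf2 named above as a target of miR-675, read 110.2 (control) and 325 (knockout), a difference of 1.56. Its other sequence was below the random-sequence level on both arrays, at 31.4 and 30.3. Insr, the insulin receptor, was at 296 and 454 (0.62). Grb2, the adaptor that leads to Ras, was at 992 and 410 (-1.27), but its next sequence was at 580 and 656 (0.18). Ins1 was at 1058 and 2718 (1.36) with 1 sequence. The ligand Igf1 was at 774 and 844 (0.12) and Akt1 at 530.1 and 622 (0.23). The 21 other sequences of these genes in the detected range had 6 higher and 15 lower, with a median of -0.15.

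Inhibitors of cyclin-dependent kinases, cyclins, their kinases and other cell cycle genes beside Cdkn1c were measured for 22 genes. Of these, 16 were in the detected range, 11 higher and 5 lower, beside 51.7% higher among all genes of that range. Over all 22 genes 14 were higher and 8 lower, with a median of 0.25. Among the lower were Ccnd2 (17289 and 13964, -0.31), whose 2 sequences were both lower, and Ccnd1 (214 and 79.7, -1.42), outside the detected range. At least 2-fold differences were seen in 2 of the 16, beside 11.2% of all genes in that range: Ccna2, the cyclin of S phase (88.3 and 219, 1.31), and Mki67, a marker of cycling cells (1325 and 3009, 1.18), whose 3 sequences were all higher, by 0.57 to 1.18. Ccna2 had 1 sequence, at 1.24 times the random-sequence level in the control. Among the inhibitors, Cdkn2c (p18) was at 285 and 537 (0.91) and both of its sequences were higher, Cdkn1a (p21) was at 129.7 and 182 (0.49), and Cdkn1b (p27) at 334 and 289 (-0.21). These are values of the brightest sequences. The second Cdkn2c sequence was at 144 and 372 (1.37), the 3 Cdkn1a sequences were higher by 0.49 to 1.25, and the second Cdkn1b sequence was higher by 0.24.

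Genes that read or keep imprints had a median of 0.14 over 12 genes, with 5 of the 10 in the detected range higher and 5 lower. Ctcf, the insulator protein that binds the H19 and Igf2 control region, was the only one of these 10 to differ 2-fold. Among all genes of that range 11.2% did (5.09% higher, 6.14% lower). Ctcf read 309.9 (control) and 84.2 (knockout), a difference of -1.88, and its knockout value was only 1.11 times the random-sequence level. The second brightest of its 4 sequences was at 217 and 116 (-0.90), the next at 106.5 and 102 (-0.065), and the last was below background on both arrays. Zfp57, a zinc finger protein that protects imprints, was at 130.4 and 213 (0.70), and Dnmt1, the maintenance DNA methyltransferase, at 795 and 596 (-0.42).

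**Figure D3:**
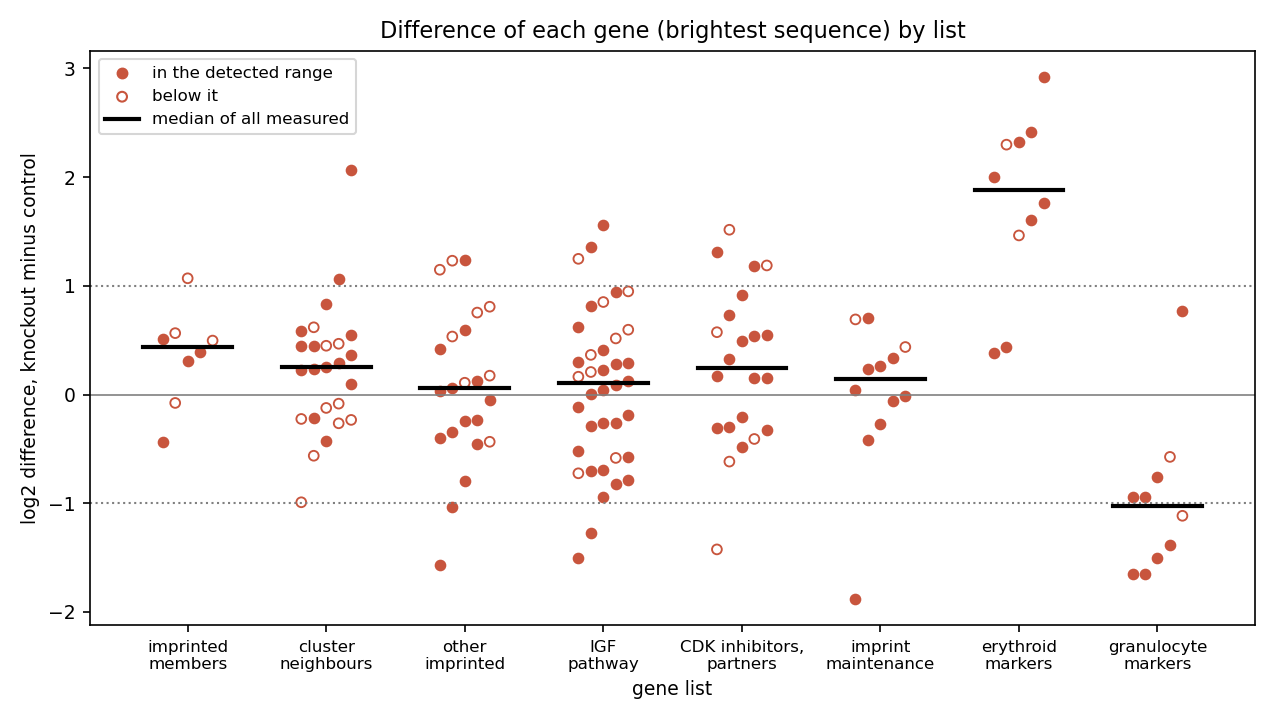
Log2 difference (knockout minus control) of each gene, by its brightest sequence, for the imprinted members, the lists of related genes and the markers of erythroid and granulocyte cells; filled points are in the detected range, open points are below it, bars are medians of all measured genes and dotted lines mark 2-fold. The members' median is 0.44, the medians of the related lists lie between 0.06 and 0.25, and those of the erythroid and granulocyte markers are 1.88 and -1.03.

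Erythroid and granulocyte markers differed between the arrays by more than the imprinted genes, with medians of 1.88 and -1.03. All 10 erythroid markers were higher in the knockout, with summed intensities of 10240 (control) and 56555 (knockout). Hbb-b1 alone gave 5699 and 43218 of these sums. Of 10 granulocyte and monocyte markers 9 were lower, with sums of 138434 and 52759. None of these 20 was below the random-sequence level on both arrays. Of 11 markers of stem and progenitor cells, not all particular to LT-HSC, 6 were in the detected range. Of these 6, 2 were higher (Kit and Cd34) and 4 lower, beside 51.7% higher among all genes of that range. Over all 11 the median was -0.26 with 7 lower. The 6 other sequences of these genes in the detected range leaned the other way, with 4 higher, 2 lower and a median of 0.30. Among the 6 genes of that range were Kit (398 and 489), Cd34 (746 and 1105), Ly6a (835 and 596), Gata2 (584 and 324) and Mecom (350.1 and 163, -1.10). Mecom was the only 1 of them at 2-fold, beside 11.2% of all genes in that range, and its 6 sequences ran from -1.65 to 0.49. Procr, Tek and Fgd5, which help define LT-HSC, were below the random-sequence level on both arrays. Stromal, endothelial and bone markers summed to 3673 and 3565 over 8 genes, 5 higher and 3 lower, and 6 lymphoid markers to 1461 and 1509. Pecam1 alone gave 2295 and 2376 of the first sums, which therefore say little of the other 7. Col1a1, for example, was at 495 and 277 (-0.84), and the bone marker Bglap was not measured. The part of other cells in the values of the imprinted genes was not tested, and fewer cells of a type cannot be told apart here from less RNA per cell. Washc1, the targeted gene, read 119 (control) and 107 (knockout), a difference of -0.15; the position of its probes relative to the deletion is unknown, so it does not check the genotype labels. The arrays had median intensities of 137 and 137, and their number limits the precision of every value given.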

How the data were processed

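Total RNA of sorted LT-HSC was measured on 2 arrays, 1 per genotype. The authors deposited linear intensity values, 1 for each sequence. RMA is the tool named in the submitters' processing notes (version not given in the sources used here). Sequences were placed on MM9, per the file headers. RMA normalizes arrays to each other, so a shift of most genes is not visible. Here log2 values were taken without further scaling and subtracted (Python 3.11.15, pandas 2.3.3). Symbols were updated through RefSeq gene identifiers (39057 of 44170 sequences matched; 41886 carried a symbol). A gene was represented by its sequence of highest mean log2 value. Genes were counted at 2-fold, since 1 array a group allows no test. A value at or below the random-sequence level on 1 array gives a bound, computed against that level. Named beyond the members were, per list, up to 4 genes of the detected range, above the random-sequence level on both arrays, at 2-fold (where none, the 2 of largest size); the further genes named in each list were chosen after their values were seen. Some genes of the lists are counted but not reported here by name. Members and lists were chosen with earlier results of these data known. The counting step was tested on simulated data. Alternatives were the authors' series table (34219 rows, 17 of the 25 member sequences, differing by at most 0.0412 intensity units), centring, quantile normalization, loess (span 0.3, statsmodels 0.14.6), an offset of 50, other detection filters, sizes of 1.5-fold and 3-fold, and the mean or dimmest sequence of a gene.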

Additional observations from a re-analysis of the deposited data

How the results depend on the processing

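No paired analysis was possible because there was only 1 array for either genotype, and leaving out an array leaves no comparison. No member sequence and no member gene in the detected range differed 2-fold. Without a filter on dim features 4 sequences and 1 gene did, and with the higher value above its array median 3 sequences and 1 gene. With the filter of standing above the random-sequence level on both arrays, chosen after seeing the data, 2 sequences and 1 gene did, and 3 sequences of the detected range passed 1.5-fold. The gene was Igf2 each time. The members' median of 0.44 was 0.32 with the offset, 0.33 when a gene's sequences were averaged and 0.14 with the dimmest. Under the 75th percentile filter the medians were -0.14 for imprinted genes of other clusters, -0.055 for the IGF pathway and -0.016 for imprint maintenance genes. Averaging a gene's sequences gave 0.11 for the cell cycle genes and 0.024 for imprint maintenance genes, and with the dimmest sequence -0.058 and -0.077. The cause of these shifts was not tested. The other 55 values of these counts and medians moved by less than 0.1 (medians) or 1.5 times (counts). Of 55 alternatives for single members, 48 moved by less than the spread between sequences of a gene, and the other 7 came from the mean or dimmest sequence, which turned the sign of Cdkn1c, H19, Meg3 and Grb10. Peg3 turned too, to 0.12 with its dimmest sequence. Signal near the random-sequence level limits Igf2, H19, Grb10 and Peg3.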
